A study of Mus musculus with 14 samples.

Results

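The genes described here are 10 genes of the major histocompatibility complex (MHC) class I pathway and the immunoproteasome: B2m, H2-K1, H2-D1, Tap1, Tap2, Tapbp, Psmb8, Psmb9, Psmb10 and Nlrc5. They were taken by gene symbol from the expression tables of mouse skin epithelium. No measured value entered that rule, but the members were chosen with earlier results of these data known. All 10 were among the 22033 symbols of the tables, and all 10 passed the filter on low values that left 12468 genes for testing. The study profiled wild type C57BL/6 mice by RNA sequencing of epithelial cells from dorsal skin, at 2 and at 24 months of age. Cells were isolated by fluorescence-activated sorting, with no surface markers given in the labels. The 12 libraries used here are 2 per age of each of 3 populations: bulge stem cells of telogen (resting) follicles, here tBSC; interfollicular epidermis of telogen skin, here Epi; and activated bulge stem cells from depilated skin, here aBSC. Wounded epidermis, with 1 library per age and another annotation, entered no comparison.

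MHC class I molecules display short peptides from inside the cell to CD8 T cells and, through other receptors, to natural killer cells. The peptides are cut by the proteasome, carried into the endoplasmic reticulum by the TAP transporter and loaded onto a heavy chain paired with beta-2-microglobulin. In cells exposed to interferon gamma, immunoproteasome subunits can replace the constitutive catalytic subunits, and the transactivator NLRC5 acts on class I promoters. Low class I display has been described as a feature of some resting stem cells, the hair follicle bulge among them.

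The labels do not say whether the 2 libraries of a group came from separate animals, so the p-values below measure only the spread between libraries, which may be technical. Estimated depth ran from 21.8 to 43.4 megafragments per library. The summed level of 8 bulge markers was 15024 to 17454 FPKM (fragments per kilobase and per mapped megafragment) in tBSC, 3150 to 6011 in Epi and 2949 to 3648 in aBSC, most of it Krt15. A list of 8 interfollicular epidermis markers did not separate the groups, at 3220 to 8452 FPKM in tBSC, 4437 to 5860 in Epi and 1365 to 11174 in aBSC. Cd34, a bulge surface marker, was at 945 to 1303 FPKM in tBSC, 59.0 to 91.9 in aBSC and 0.375 to 5.75 in Epi. Lgr5, Nfatc1, Sox9 and Lhx2 of the bulge list were likewise higher in every aBSC library than in any Epi library. Krt15 and Tcf3 overlapped between aBSC and Epi, and Itga6 was higher in Epi. Transcripts of 4 cell division genes summed to 9.88 to 25.6 FPKM in tBSC, against 141 to 171 in Epi and 182 to 266 in aBSC. Xist was at 15.8 to 141 FPKM in aBSC and at most 0.28 in the tBSC and Epi libraries, where the Y-linked Eif2s3y was at 18.0 to 48.6 against 0.04 to 0.14 in aBSC. Activation and this split cannot be told apart. The replicate-2 libraries of Epi and aBSC stood apart from replicate 1 in a way that followed transcript length: the difference correlated with length (Spearman over 12468 genes) at 0.526 and 0.226 in Epi and at 0.544 and 0.469 in aBSC at 2 and 24 months, against -0.300 and 0.101 in tBSC. In those 4 libraries 9 members were lower than in replicate 1, and Nlrc5, the longest at 6945 bases, was higher. Since these are bulk samples, fewer cells of a type and less RNA per cell cannot be told apart.

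Of the 10 genes, 7 lie on chromosome 17 in the mm9 tables, within or beside the MHC. Tapbp is at chr17:34056423-34066235 (plus strand), H2-K1 at chr17:34132957-34137278 (minus), and H2-D1 at chr17:35400039-35404442 (plus). Psmb9 (chr17:34319044-34324275, minus), Tap1 (chr17:34324501-34334170, plus), Psmb8 (chr17:34335140-34338399, plus) and Tap2 (chr17:34341424-34353266, plus) are neighbours. The start sites of Psmb9 and Tap1 are 226 bases apart and face away from each other. B2m is at chr2:121973423-121978818 (plus), Psmb10 at chr8:108459628-108462292 (minus) and Nlrc5 at chr8:96996663-97051172 (plus). Each value counts all annotated exons of the gene, from 4 in B2m to 49 in Nlrc5.

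Promoter sequences are shown for the genes whose levels followed each other most closely across libraries, because B2m, H2-K1 and H2-D1 encode the subunits of the displayed molecule and Psmb8, Psmb9 and Tap1 lie in 1 cluster. RefSeq promoter entries (GRCm38.p6) were matched by symbol for 8 of the 10 genes, all but Tap2 and Nlrc5. The bases before the start site are printed 5′ to 3′ on the gene's strand: chr2:122147487-122147686 for B2m, chr17:34000348-34000547 (minus strand) for H2-K1, chr17:35262894-35263093 for H2-D1 and chr17:34197995-34198194 for Psmb8. The last sequence, chr17:34187331-34187555, is the 225 bases between the Psmb9 and Tap1 starts, on the Tap1 strand. Capitals mark matches to the motifs spelled out after the sequences, the CCAAT box left in lower case.
B2m: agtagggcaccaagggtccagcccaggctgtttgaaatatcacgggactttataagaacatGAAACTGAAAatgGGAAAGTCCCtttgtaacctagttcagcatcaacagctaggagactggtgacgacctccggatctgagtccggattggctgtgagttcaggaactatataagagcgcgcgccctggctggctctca
H2-K1: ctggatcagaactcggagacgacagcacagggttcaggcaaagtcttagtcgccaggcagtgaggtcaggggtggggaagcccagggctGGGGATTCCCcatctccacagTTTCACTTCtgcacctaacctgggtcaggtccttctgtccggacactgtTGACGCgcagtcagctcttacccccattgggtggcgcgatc
H2-D1: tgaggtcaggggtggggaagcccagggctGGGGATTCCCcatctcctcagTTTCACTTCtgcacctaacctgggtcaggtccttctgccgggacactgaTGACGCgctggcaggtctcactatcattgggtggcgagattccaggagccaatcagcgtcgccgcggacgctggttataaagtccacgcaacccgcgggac
Psmb8: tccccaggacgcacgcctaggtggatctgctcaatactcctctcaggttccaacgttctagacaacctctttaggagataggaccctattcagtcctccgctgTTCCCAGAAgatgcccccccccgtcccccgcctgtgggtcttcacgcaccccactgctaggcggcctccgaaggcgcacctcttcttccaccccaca
Psmb9-Tap1: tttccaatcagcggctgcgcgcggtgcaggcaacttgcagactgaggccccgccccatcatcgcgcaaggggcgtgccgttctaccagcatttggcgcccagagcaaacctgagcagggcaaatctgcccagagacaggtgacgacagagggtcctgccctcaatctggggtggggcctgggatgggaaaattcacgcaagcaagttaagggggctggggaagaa

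The motifs were searched on both strands of the 250 bases before the start, and shares are of 32851 RefSeq promoters. H2-K1 and H2-D1 both held a 10-base kappa B palindrome, the first capitals in each, present in 0.0852% of promoters, followed by TTTCACTTC, a match to the shorter interferon-stimulated response element GAANNGAAA (6.31%), and by TGACGC, the X2 box core (6.12%). In H2-K1 these began at positions -111, -90 and -41 from the start, and in H2-D1 at -171, -150 and -101. H2-K1 has 2 RefSeq starts, and the first is shown. B2m held a match to the full interferon-stimulated response element (2.98%), its first capitals, and a 10-base match to another kappa B form (0.14%), its second. Psmb8 held TTCCCAGAA, a match to the gamma-activated site TTCNNNGAA (7.02%). CCAAT, in either orientation, was in 33.8% of promoters and in B2m, H2-K1, H2-D1, Tap1, Tapbp and Psmb9 among the 8. A match is a description of the letters and not evidence of binding in these cells.

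The displayed molecule was the most abundant part of the pathway. B2m, the light chain shared by class I molecules, had a mean over the 12 libraries of 1423 FPKM, at percentile 99.6 of the genes tested. B2m was at 851 and 964 FPKM in the 2 tBSC libraries at 2 months and at 1202 and 1306 at 24 months. In Epi it was at 2387 and 1684 FPKM at 2 months and 2695 and 2450 at 24 months. In aBSC it was at 939 and 539 FPKM at 2 months and 1222 and 841 at 24 months. All 4 Epi libraries lay above all 8 bulge libraries, and the tBSC and aBSC ranges overlapped.

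H2-K1 encodes a classical class I heavy chain. It was at 363 and 456 FPKM in tBSC at 2 months and 677 and 674 at 24 months, at 1363 and 811 then 1627 and 1017 in Epi, and at 362 and 264 then 491 and 376 in aBSC. H2-D1, the other classical heavy chain of this strain, was at 333 and 426 then 545 and 548 FPKM in tBSC, at 1140 and 592 then 1155 and 797 in Epi, and at 337 and 228 then 423 and 292 in aBSC. Both heavy chains had the order of B2m, with every Epi library above every bulge library. The ratio of H2-K1 to H2-D1 stayed between 1.07 and 1.41 in the 12 libraries, and that of B2m to the sum of both chains between 0.954 and 1.35. The 2 heavy chains share sequence with other genes. Of their 50-base stretches, 8.79% in H2-K1 transcripts and 14.3% in H2-D1 transcripts occur in transcripts of other genes. Those sharing with H2-K1 include H2-D1 and H2-K2, while those sharing with H2-D1 include genes outside class I, such as Adsl and Atad2. Part of the reads of both chains could therefore have been assigned either way.

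TAP1 and TAP2 form the peptide transporter. Tap1 was at 34.9 and 46.7 FPKM in tBSC at 2 months and 54.2 and 51.4 at 24 months, at 137 and 61.2 then 168 and 73.5 in Epi, and at 38.1 and 32.5 then 52.8 and 42.8 in aBSC. Its Epi libraries again lay above all others. Tap2 showed no such order. It was at 28.02 and 32.9 then 38.7 and 36.7 FPKM in tBSC, at 35.7 and 21.6 then 45.6 and 26.7 in Epi, and at 36.8 and 26.3 then 67.2 and 35.7 in aBSC, and all 3 populations overlapped. Tapbp, tapasin, bridges the transporter and the empty class I molecule. It was at 54.2 and 61.7 then 70.4 and 75.8 FPKM in tBSC, at 89.1 and 35.8 then 93.7 and 36.4 in Epi, and at 49.6 and 25.8 then 62.8 and 26.4 in aBSC. In Tapbp the replicate-2 libraries of Epi and aBSC were all below 37 FPKM and the ranges of the 3 populations overlapped.

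Psmb8, Psmb9 and Psmb10 encode the catalytic subunits of the immunoproteasome. Psmb8 was at 21.6 and 26.3 FPKM in tBSC at 2 months and 42.4 and 41.9 at 24 months, at 113 and 41.4 then 158 and 81.4 in Epi, and at 26.4 and 18.1 then 62.6 and 32.3 in aBSC. Psmb9 was at 23.9 and 28.01 then 47.7 and 45.1 FPKM in tBSC, at 105 and 46.8 then 153 and 95.6 in Epi, and at 30.6 and 22.2 then 53.9 and 35.4 in aBSC. In both genes Epi lay above tBSC within each age, although replicate 2 of Epi at 2 months was level with tBSC at 24 months. Psmb10 was lower than both, at 10.6 and 13.7 then 18.1 and 17.8 FPKM in tBSC, at 22.4 and 8.73 then 24.3 and 15.3 in Epi, and at 17.3 and 6.03 then 21.3 and 8.57 in aBSC. Its lowest library, replicate 2 of aBSC at 2 months, rested on an estimated 259 fragments, the fewest of any member.

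Nlrc5 encodes the transactivator of class I genes and had the lowest mean level of the 10, 9.92 FPKM. It was at 2.48 and 4.31 FPKM in tBSC at 2 months and 5.20 and 4.91 at 24 months. In Epi it was at 14.6 and 21.2 then 17.3 and 20.05 FPKM, and in aBSC at 4.88 and 7.14 then 5.97 and 11.1. Every Epi library was above every bulge library, and at each age both aBSC libraries were above both tBSC libraries, though by less than 1 FPKM at the nearest.

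**Figure D1:**
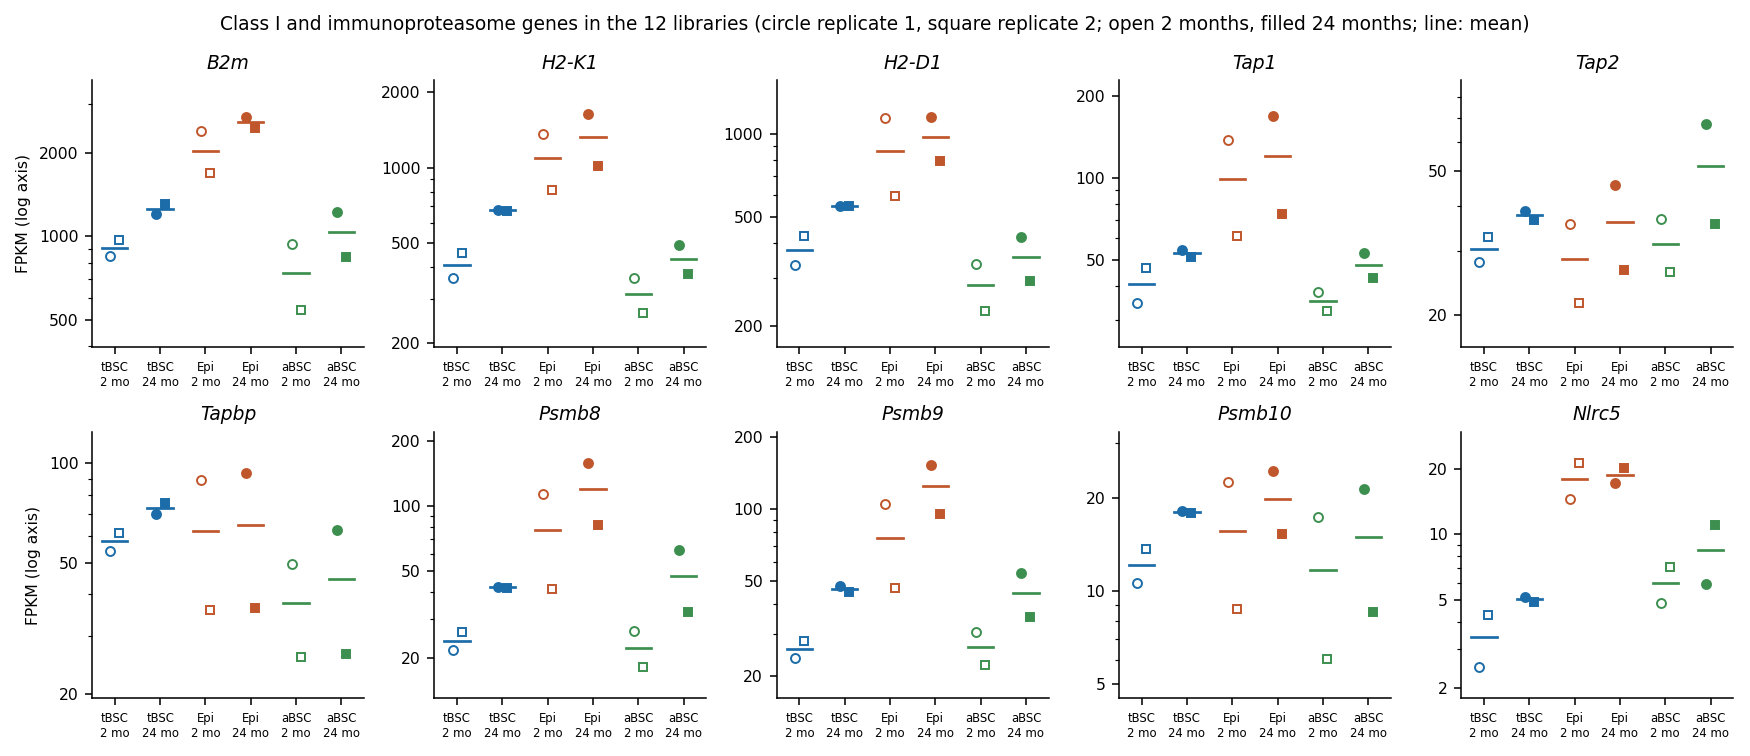
FPKM of the 10 genes in the 12 libraries, on a log axis, by population and age, with circles for replicate 1, squares for replicate 2, open symbols for 2 months, filled symbols for 24 months and a line at each group mean. In B2m, H2-K1, H2-D1, Tap1 and Nlrc5 all 4 Epi libraries lie above the 8 bulge libraries, while in Tap2, Tapbp and Psmb10 the populations overlap.

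The first comparison asked how resting bulge stem cells differed from interfollicular epidermis. Averaged over both ages, 7 of the 10 genes were lower in tBSC: B2m, H2-K1, H2-D1, Tap1, Psmb8, Psmb9 and Nlrc5 (limma across 12468 genes, Benjamini-Hochberg adjusted p under 0.05). The background for calls in that direction was 12.7% of the genes tested. The median log2 difference of the 10 genes was -1.10, against 0.15 for all genes. Differences are on the log2(FPKM + 1) scale, which understates them for low genes such as Nlrc5.

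The largest difference was that of Nlrc5, -1.90 on the log2 scale (SE 0.23, adjusted p = 0.000142 by limma), from a mean of 18.3 FPKM in Epi to 4.23 in tBSC. Psmb8 fell by 1.45 (SE 0.36, adjusted p = 0.0104 by limma) and Psmb9 by 1.38 (SE 0.29, adjusted p = 0.00421 by limma). For the displayed molecule the differences were -1.09 for B2m (SE 0.32, adjusted p = 0.0237 by limma), -1.15 for H2-K1 (SE 0.30, adjusted p = 0.0147) and -0.97 for H2-D1 (SE 0.32, adjusted p = 0.0379). The Tap1 difference was -1.11 (SE 0.32, adjusted p = 0.0218 by limma). Tap2 (0.11, 95% interval -0.50 to 0.73), Tapbp (0.17, -0.75 to 1.10) and Psmb10 (-0.15, -1.04 to 0.73) did not pass, and each interval holds differences in both directions. Libraries did not overlap between the populations for 5 of the 10 genes, against 16.1% of all genes.

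At 2 months alone 3 genes were lower in tBSC, H2-K1 (-1.37), Psmb9 (-1.40) and Nlrc5 (-2.11), with a background of 7.15%. At 24 months 2 were, Psmb9 (-1.36) and Nlrc5 (-1.69), with a background of 7.74%. At each age libraries did not overlap for 7 of the 10, the genes called in the average, against 21.6% and 27.9% of all genes. The difference between the ages was itself tested and passed for none of the 10 (limma, 0 also at an unadjusted p under 0.05, background 0.0%), with changes of -0.02 to 0.44. The averaged count of 7 was 3 (Psmb8, Psmb9 and Nlrc5) without replicate 1 of tBSC at 2 months, without either tBSC library at 24 months, or without replicate 1 of Epi at 24 months. Where the 4 replicate-2 libraries of Epi and aBSC were left out, or the length trend was removed from each library, these 7 genes were among those that passed at 2 and at 24 months. With those 4 libraries out the spread came from tBSC alone, and 51.7% and 42.2% of all genes were called.

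**Figure D2:**
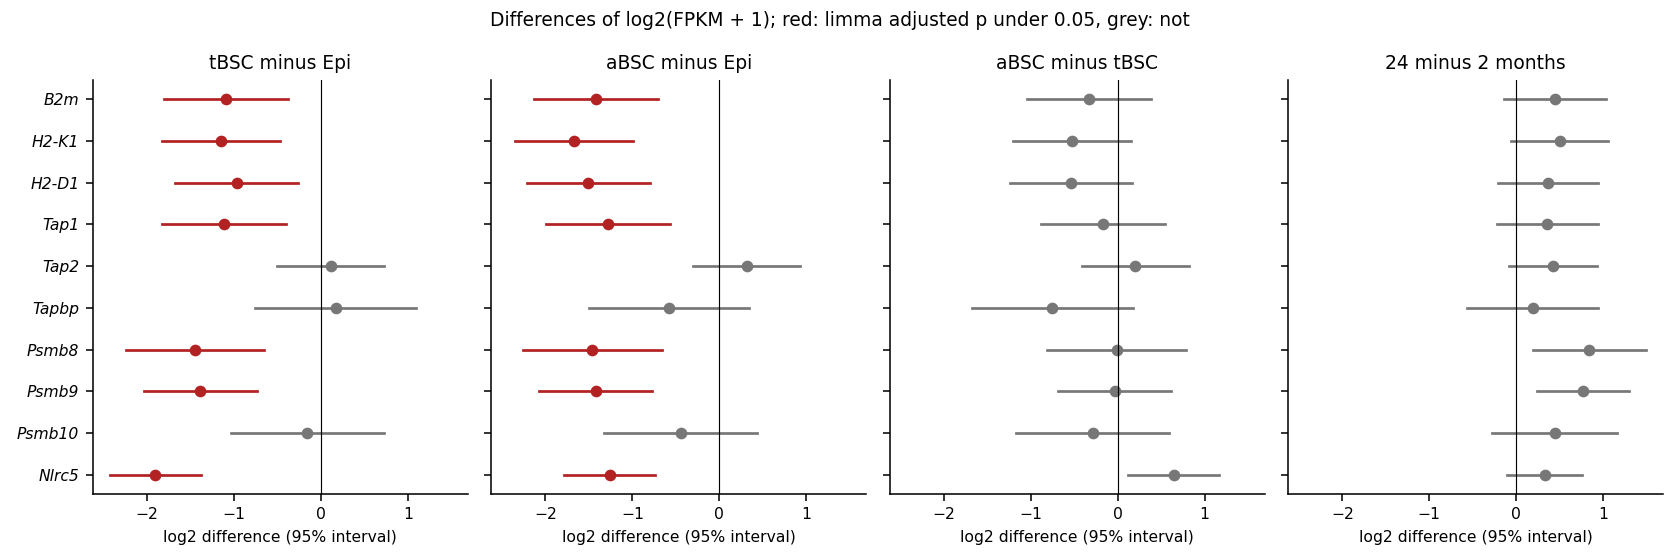
Differences of log2(FPKM + 1) for the 10 genes with 95% intervals in 4 comparisons, population differences averaged over both ages and the age difference averaged over the 3 populations, in red where the limma adjusted p was under 0.05. The same 7 genes are red and below 0 in both comparisons with Epi, and none is red between aBSC and tBSC or between ages.

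Markers of other cell types were read beside these differences. Ptprc, the pan-leukocyte antigen CD45, was at 0.0457 to 0.535 FPKM in Epi and 0.0735 to 0.132 in tBSC. The 7 T cell markers summed to 56.4 to 185 FPKM in Epi against 9.41 to 14.2 in tBSC. Of the 4 tested, 1 was called lower in tBSC, against 12.7% of all genes. Nearly all of that sum was Thy1, at 54.6 to 182 FPKM in Epi, while Cd3e, a T cell receptor chain, was at 0.398 to 0.818. The 6 markers of Langerhans and other antigen-presenting cells summed to 38.0 to 112 FPKM in Epi and 56.7 to 83.1 in tBSC. Of the 5 tested, 0 were called, against 34.4% of all genes in either direction. Cd207, the Langerhans cell lectin, was at 1.27 to 2.18 FPKM in Epi and 1.32 to 2.44 in tBSC. In aBSC the T cell markers summed to 14.0 to 28.8 FPKM and the antigen-presenting cell markers to 15.6 to 98.8. Markers of other skin cells moved with the comparison. The 5 melanocyte markers summed to 16.5 to 48.0 FPKM in tBSC, 1.16 to 2.08 in Epi and 6.05 to 8.45 in aBSC. All 3 tested were called higher in tBSC than in Epi, against 21.7% of all genes. Fibroblast markers, 6 in all, summed to 15.8 to 17.3 FPKM in tBSC, 0.121 to 0.629 in Epi and 7.01 to 427 in aBSC, the highest in replicate 1 at 2 months. The part of such cells in the class I levels was not tested.

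Activated bulge stem cells were compared with Epi in the same way, with the same Epi libraries. Again 7 of the 10 genes were lower in aBSC, the same 7, against a background of 7.22%. The differences were -1.42 for B2m, -1.67 for H2-K1, -1.51 for H2-D1, -1.28 for Tap1, -1.46 for Psmb8, -1.42 for Psmb9 and -1.26 for Nlrc5, with limma adjusted p from 0.00267 to 0.0156. Tap2 (0.32), Tapbp (-0.58) and Psmb10 (-0.44) did not pass. The median of the 10 was -1.35, against 0.08 for all genes. Libraries did not overlap for 5 of the 10, against 7.86%. The split in Xist and Y-linked transcripts also lies between aBSC and Epi, and it cannot be told apart from these differences.

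Between aBSC and tBSC, the comparison that spans activation after depilation, none of the 10 genes passed at 2 months, at 24 months or in the average, by limma. Of all genes, 6.6% were called higher and 6.19% lower at 2 months, 4.11% and 3.9% at 24 months and 14.0% and 17.1% in the average. At an unadjusted p under 0.05, 0 members passed at each age and 1 in the average, Nlrc5, against 20.1% of all genes with higher values. Nlrc5 came nearest, at 0.64 (SE 0.23, limma adjusted p = 0.0605). It was called with library weights, equal library totals or a replicate block, where 43.8%, 37.3% and 40.2% of all genes were called. It was not called under quantile normalization or with the length trend removed, where 39.0% and 36.7% were. In aBSC its replicate 2 was above replicate 1 by 0.47 at 2 months and 0.80 at 24 months, on the log2 scale. The others were at -0.33 for B2m, -0.52 for H2-K1, -0.54 for H2-D1, -0.17 for Tap1, 0.20 for Tap2, -0.75 for Tapbp, -0.01 for Psmb8, -0.04 for Psmb9 and -0.29 for Psmb10. The widest 95% interval, that of Tapbp, ran from -1.68 to 0.17. The signs of B2m, H2-K1, H2-D1, Tap1, Psmb8, Psmb9 and Psmb10 turned under at least 1 scaling of the libraries, so no direction is given for these genes.

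The third comparison was between 24 and 2 months of age. No gene tested passed in tBSC, Epi or aBSC, or in the mean over the 3 (limma, background 0.0% in each). At an unadjusted p under 0.05, 0 of the 10 genes passed in each population, where 0.65%, 0.69% and 0.602% of all genes did with higher values in tBSC, Epi and aBSC. In the mean 2 did, Psmb8 and Psmb9, against 1.17%. All 30 differences of the 10 genes in the 3 populations were positive, where 50.7%, 60.8% and 45.2% of all genes were, from 0.05 for Tapbp in Epi to 1.01 for Psmb8 in aBSC. Values were positive in all 3 populations for 10 of the 10 genes and for 15.9% of all genes. The 10 genes vary together from library to library, so they are not 10 separate observations.

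In tBSC both 24-month libraries were above both 2-month libraries for 10 of the 10 genes, against 26.8% of all genes. That held for 1 of 10 in Epi, B2m, against 5.26%. It held for 4 of 10 in aBSC, H2-K1, Tap1, Psmb8 and Psmb9, against 7.32%. The median difference of the 10 genes was 0.51 in tBSC, 0.30 in Epi and 0.45 in aBSC, against 0.00, 0.04 and -0.02 for all genes. In Epi the sign depended on single libraries: 10 genes were positive with all libraries, but 4 without replicate 2 at 2 months, 5 without replicate 1 at 24 months and 6 under quantile normalization. Between libraries of the same replicate number, which the labels do not pair, 24 months was above 2 months within both numbers for 10 of 10 genes in tBSC, 9 of 10 in Epi (all but Nlrc5) and 10 of 10 in aBSC, against 31.7%, 23.7% and 25.0% of all genes.

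Psmb8 and Psmb9 had the largest age values. Averaged over the 3 populations Psmb8 was 0.84 higher at 24 months (SE 0.29, 95% interval 0.19 to 1.49, not passing in limma after adjustment). It was 0.80 higher in tBSC, 0.72 in Epi and 1.01 in aBSC. The Epi value was 0.0063 without replicate 2 at 2 months, 0.25 without replicate 1 at 24 months, and 1.43 and 1.19 without the other library of each age. The aBSC value was 0.54 without replicate 1 at 24 months and up to 1.48 with another library left out. Psmb9 was 0.77 higher (SE 0.24, 95% interval 0.24 to 1.30, not passing either), with 0.82 in tBSC, 0.78 in Epi and 0.72 in aBSC. Leaving out the same libraries gave 0.21, 0.44, 1.35 and 1.11 in Epi, and aBSC ran from 0.43 without replicate 1 at 24 months to 1.02 without replicate 2 at 24 months. In tBSC both genes stayed between 0.66 and 0.93 under all alternatives. Both passed in the mean where the 4 replicate-2 libraries of Epi and aBSC were left out, where 0.842% of all genes were called, and in tBSC with library weights, where 1.78% were. The other 8 genes averaged between 0.19 for Tapbp and 0.50 for H2-K1.

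The immunoproteasome subunits replace Psmb5, Psmb6 and Psmb7 products in the assembled particle, so each was set against its counterpart within a library, a ratio that does not depend on library scaling. Psmb8 to Psmb5 was 0.168 and 0.170 in tBSC at 2 months and 0.287 and 0.280 at 24 months. In Epi it was 0.611 and 0.506 then 1.005 and 0.634, and in aBSC 0.179 and 0.232 then 0.479 and 0.420. In each population the ages did not overlap. Psmb9 to Psmb6 was 0.151 and 0.159 then 0.270 and 0.254 in tBSC, 0.703 and 0.651 then 1.06 and 0.812 in Epi, and 0.210 and 0.269 then 0.387 and 0.466 in aBSC, again with no overlap between ages. Psmb10 to Psmb7 was 0.0644 and 0.0721 then 0.112 and 0.105 in tBSC, and its ages overlapped in Epi, at 0.106 and 0.0810 then 0.139 and 0.105. In aBSC it was 0.0823 and 0.0584 then 0.121 and 0.0893, with no overlap. In Epi the nearest Psmb8 to Psmb5 values of the 2 ages were 0.611 and 0.634. These ratios were not tested, and no share over other ratios was taken. For levels of single genes, both 24-month libraries were above both 2-month libraries in 26.8% of all genes in tBSC, 5.26% in Epi and 7.32% in aBSC.

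Psmb5, Psmb6 and Psmb7 averaged 145, 172 and 171 FPKM in tBSC, 138, 121 and 160 in Epi and 108, 111 and 146 in aBSC. None of the 3 was called in any comparison, with differences of -0.48, -0.69 and -0.30 between aBSC and tBSC, so the mean denominators of the ratios were lower in aBSC. Their age values were 0.06, 0.11 and -0.07. Of 16 other genes of the core particle and its assembly, 0 were called between tBSC and Epi and 1 between aBSC and tBSC, Psmg4, an assembly chaperone (-0.78, limma adjusted p = 0.0392). In these averages 34.4% and 31.1% of all genes were called in either direction.

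**Figure D3:**
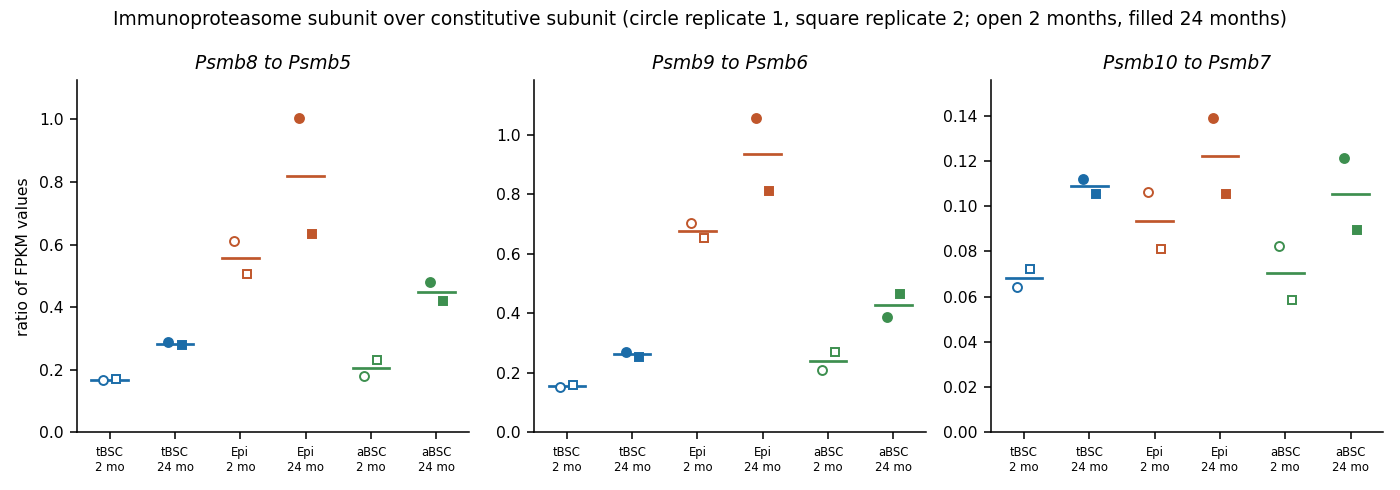
Ratio of FPKM values of each immunoproteasome subunit to its constitutive counterpart in the 12 libraries, on linear axes from 0, with open symbols for 2 months, filled symbols for 24 months and a line at each group mean. For Psmb8 to Psmb5 and Psmb9 to Psmb6 both 24-month libraries lie above both 2-month libraries in each of the 3 populations. The gap is narrow for Psmb8 to Psmb5 in Epi (0.634 against 0.611), and the ratios were not tested.

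Across the 12 libraries B2m, H2-K1, H2-D1, Tap1, Psmb8 and Psmb9 followed each other closely: their 15 pairs had Pearson correlations of 0.91 to 0.99 on log2 values. These libraries share populations, depth and the length-linked replicate difference, so the values are descriptions. The neighbours Psmb9 and Tap1, whose shared upstream interval is printed above, were at 0.95. Nlrc5 correlated with those 6 genes at 0.61 to 0.71. Tap2 stood apart, at a median of 0.24 with the other 9 and -0.21 with Nlrc5, and Tapbp went most closely with Psmb10 (0.87).

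**Figure D4:**
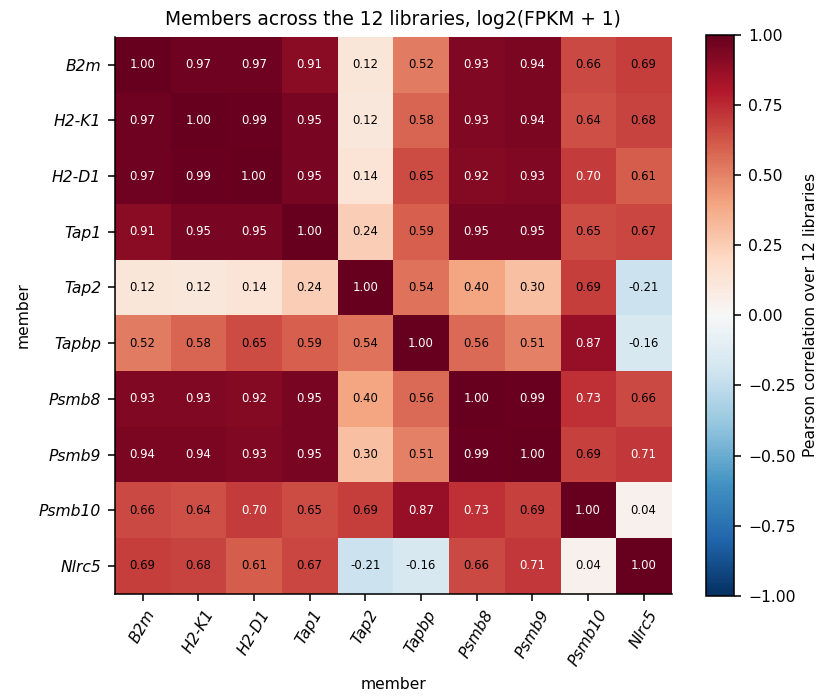
Pearson correlation of log2(FPKM + 1) between each pair of the 10 genes over the 12 libraries. The first 6 genes named form a block at 0.91 or above, and Tap2, Tapbp, Psmb10 and Nlrc5 fall outside it.

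Of 8959 other genes with a mean of at least 5 FPKM, those most like the mean profile of the 10 were Pfkl (r = 0.98), a phosphofructokinase subunit, Tmem181c-ps (0.95), Slc16a13 (0.95), Ndufa4l2 (0.94), Pdlim2 (0.94), Gm9790 (0.93), Tbc1d2 (0.93), Ripk4 (0.93), H2-T10 (0.93) and Tmco4 (0.93), over 12 libraries. Most like Nlrc5 were Mapkbp1 (0.96), H2-Gs10 (0.95), the kinase gene Ikbke (0.95), Ptpn13 (0.94) and Amotl1 (0.94).

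The wider pathway was read from lists of related genes, in which all genes tested had a median of 0.15 between tBSC and Epi, -0.08 between aBSC and tBSC and 0.08 between aBSC and Epi. The list counts stand against 21.7% of all genes called higher and 12.7% lower between tBSC and Epi, 14.0% and 17.1% between aBSC and tBSC, and 15.3% and 7.22% between aBSC and Epi. Of 19 tested class Ib and class I-like genes, 2 were higher and 5 lower in tBSC than in Epi, among them H2-Q8 (-1.30), H2-Q9 (-1.67), H2-M2 (-2.03) and Fcgrt (2.10), the neonatal Fc receptor, with a list median of -0.34. Against tBSC, 1 was higher and 10 lower in aBSC, including H2-Q7 (-1.13) and H2-M3 (-1.20), which presents formylated peptides, with Cd1d1, the lipid-presenting molecule, higher by 1.17. Against Epi, 2 were higher and 11 lower in aBSC, with a median of -1.43. Many of these genes are near copies of each other, so their values are uncertain. H2-T23, which encodes Qa-1, the ligand of inhibitory and activating natural killer receptors, had another order. It was at 196 and 263 then 280 and 263 FPKM in tBSC, at 175 and 71.0 then 178 and 102 in Epi and at 116 and 79.0 then 185 and 98.3 in aBSC. All 4 tBSC libraries were above all 8 others. The difference from Epi was 1.01 (SE 0.35, limma adjusted p = 0.0502) and that of aBSC from tBSC -1.12 (SE 0.35, limma adjusted p = 0.0370). No class Ib gene was called with age (limma, 0 of 19). The list median of the age mean was 0.35, against 0.006 for all genes, and near copies are not separate observations. The smallest unadjusted p were at H2-Q8, H2-M3 and H2-Q7, whose log2 differences were 0.54, 0.70 and 0.73.

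Of 14 tested peptide loading and trimming genes, 0 were higher and 2 lower in tBSC than in Epi, the trimming peptidase genes Erap1 (-0.60) and Lnpep (-1.15). Between aBSC and tBSC 3 were higher and 0 lower: the chaperone gene Hspa5 (1.31), Tpp2 (0.96) and Erap1 (0.50). The 2 lower calls are a share near that of all genes. Lnpep differed between the Epi replicates, at 10.3 and 25.4 FPKM at 2 months and 14.5 and 23.2 at 24 months. Of the 4 proteasome activators, Psme4 was lower in tBSC than in Epi (-0.83, limma adjusted p = 0.0175) and higher in aBSC than in tBSC (1.19, limma adjusted p = 0.00441). The interferon-inducible activators Psme1 and Psme2 were not called in either, at 0.08 and -0.26 between tBSC and Epi.

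Among 22 tested regulators of class I genes, 2 were higher and 3 lower in tBSC than in Epi, the lower calls at a share near that of all genes and the higher calls below it. Irf1, an interferon-induced transcription factor, was at 9.61 and 11.5 then 15.3 and 17.8 FPKM in tBSC, at 41.7 and 37.8 then 64.5 and 57.3 in Epi, and at 89.8 and 126 then 145 and 47.2 in aBSC. The difference of tBSC from Epi was -1.82 (SE 0.31, limma adjusted p = 0.00125) and that of aBSC from tBSC 2.74 (SE 0.31, limma adjusted p = 0.000216). In aBSC 3 of the 4 libraries were above every Epi library (difference of aBSC from Epi 0.92, limma adjusted p = 0.0612), while B2m, H2-K1 and H2-D1 were below the Epi range in all 4. Nfkb2 (-1.07) and Ezh2 (-1.47), the polycomb methyltransferase gene, were also lower in tBSC, and Rfxank was higher (0.68). Between aBSC and tBSC 6 regulators were higher and 0 lower, including Ezh2 (1.88), Crebbp (1.24) and Ep300 (1.11). Rfx5, which encodes a subunit of the factor that binds the X box, was not called between tBSC and Epi (-0.13).

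Ifngr1, the ligand-binding chain of the interferon gamma receptor, separated the populations more widely than any member. It was at 13.8 and 18.7 then 16.5 and 18.0 FPKM in tBSC, at 87.4 and 105 then 104 and 119 in Epi and at 14.6 and 6.91 then 11.5 and 10.4 in aBSC. The difference was -2.56 between tBSC and Epi (SE 0.23, limma adjusted p = 1.73e-05) and -3.18 between aBSC and Epi (SE 0.23, limma adjusted p = 7.1e-06). Of 11 tested interferon receptor and signalling genes, 0 were higher and 4 lower in tBSC than in Epi, the others being Socs3 (-2.94), Jak1 (-0.54) and Tyk2 (-0.46). Between aBSC and tBSC 1 was higher, Socs3 (2.04), and 1 lower, Usp18 (-2.92), both feedback inhibitors.

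**Figure D5:**
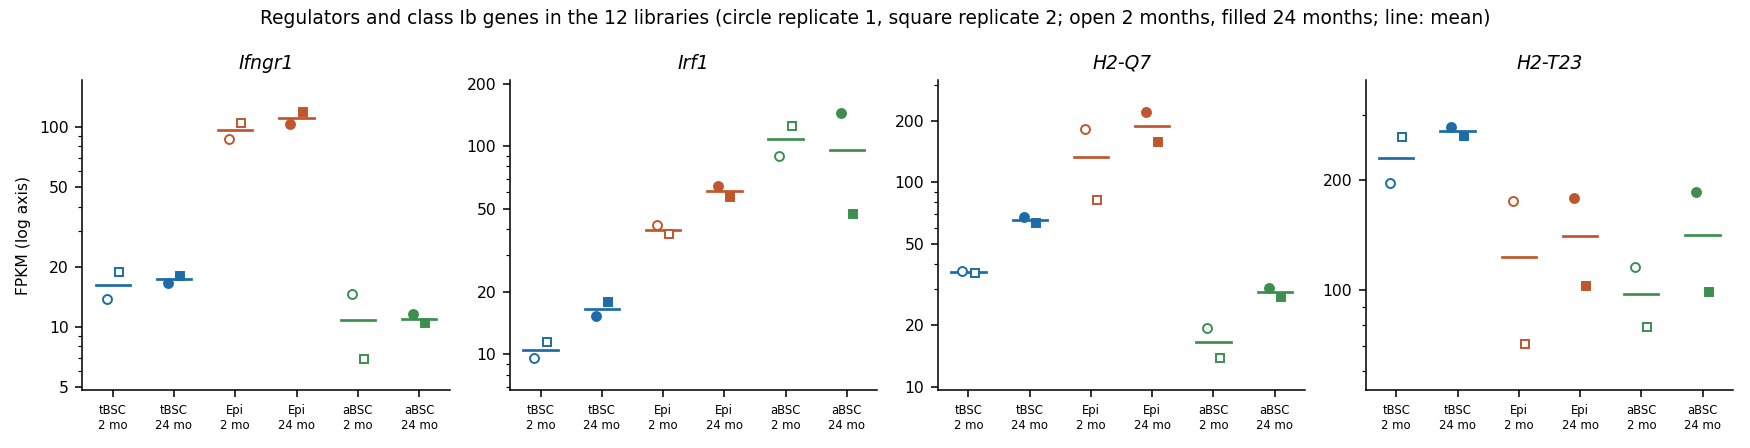
FPKM of Ifngr1, Irf1, H2-Q7 and H2-T23 in the 12 libraries, on log axes, with circles for replicate 1, squares for replicate 2, open symbols for 2 months and filled symbols for 24 months. Ifngr1 is above 87 FPKM in Epi and below 19 in every bulge library, whereas Irf1 in aBSC reaches or passes the Epi range.

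Of 26 tested interferon-stimulated genes outside class I presentation, 1 was higher and 14 lower in tBSC than in Epi, including Iigp1 (-0.87), Cxcl10 (-1.34), Oas1a (-2.19) and Oasl2 (-1.24). These named genes were low in tBSC, Iigp1 at 0.0478 to 0.241 FPKM and Cxcl10 at 0.299 to 1.99. Oas1a was at 0.324 to 1.36 FPKM there and Oasl2 at 0.342 to 1.06. The median of the list was -0.54, against 0.15 for all genes. Between aBSC and tBSC 3 were higher and 4 lower, with Cxcl10 at 2.11 and Igtp at -1.51. With age 0 of 26 were called by limma and the median was 0.07. Of 7 tested class II genes, 2 were higher and 0 lower in tBSC than in Epi, against 21.7% and 12.7% of all genes. The higher share is near that of all genes, and the list median was 0.02. The 2 genes were the peptide-exchange subunits H2-DMb1 (1.75) and H2-DMb2 (1.34), and both were lower in aBSC than in tBSC, at -1.14 and -0.95.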

How the data were processed

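RNA was measured by sequencing of mRNA libraries (TruSeq kit, per the labels' protocols). Per the submitters' processing notes, TopHat, Cufflinks and mm9 were used, with no versions given. The authors deposited transcript tables with FPKM values held as text in the attribute field. The deposited FPKM values were summed per gene symbol and divided by 1 constant common to all libraries, since they stood above the usual FPKM by a factor that differs between libraries, from 12533 to 18522, so levels are approximate while differences keep the deposited scaling. Fragment numbers were estimated from the deposited coverage and transcript lengths.

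Genes were kept where 2 or more of the 12 libraries reached 1 FPKM and the longest transcript had 300 bases or more, without Krt5 and Krt14. limma 3.58.1 in R 4.3.3 was fitted on log2(FPKM + 1) with 1 mean for each of 6 groups, in 13 comparisons that share libraries, with Benjamini-Hochberg adjustment within each and a threshold of 0.05. The median SE of a difference between groups of 2 was 0.325. The fit was tested on simulated data. Tables were handled in python 3.11.15. The members and the lists were chosen with earlier results of these data known. Beside the 10 members, the text names up to 4 genes per list and comparison with the smallest unadjusted p, a fixed set (Psmb5, Psmb6, Psmb7, Psme1, Psme2, Irf1, Rfx5, H2-T23 and 1 gene that is not reported here) and the genes most like the members by Pearson correlation. Alternatives were other scalings, filters and pseudocounts, the main transcript only, no variance trend, library weights, a replicate block, single libraries left out and, chosen after seeing the data, removal of the length trend and of 4 libraries. The wounded libraries were left out of the tests, having 1 sample per age and another annotation.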

Additional observations from a re-analysis of the deposited data

Results flagged for a closer look

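The wounded epidermis libraries, 1 per age and outside every comparison, also carried class I transcripts. Their FPKM values have another annotation and scale, so they cannot be set against the other libraries. B2m was at 2811 FPKM at 2 months and 1549.6 at 24 months, where a transcript assembled at the same locus held a further 1211 FPKM, with none at 2 months. H2-K1 was at 557 and 578 FPKM, Tap1 at 35.8 and 51.3, Tapbp at 5.38 and 11.9, Psmb10 at 14.7 and 10.99 and Nlrc5 at 9.81 and 8.54, in that order of age. Tap2 was listed at 0 at 2 months and at 21.7 FPKM at 24 months, and Psmb8 at 0 and 75.98, with a transcript assembled at its locus at 104 FPKM at 2 months. Assembled transcripts at the Psmb10 locus held 27.5 and 29.5 FPKM, at Nlrc5 1.55 and 6.83, and at Tapbp 15.5 at 24 months alone. H2-D1 and Psmb9 were listed at 0 in both. A value of 0 can be a failed estimate or a transcript listed under another name, and no difference between the ages was tested.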

How the results depend on the processing

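The 7 genes lower in tBSC than in Epi in the average of both ages kept their direction under all alternatives, while their number was 3 to 7 with single libraries left out. At 2 months, 3 genes were called: 7 under quantile normalization, equal library totals or removal of the length trend, 9 with the 4 replicate-2 libraries of Epi and aBSC left out, 1 with no filter on low values or only the groups compared, and 1 to 5 with single libraries left out (1 without either tBSC library of either age or replicate 1 of Epi, 5 without replicate 2 of Epi). At 24 months, 2 were called: 7 under quantile normalization, equal totals, length trend removal or the 4 libraries left out, 1 with no filter, and 1 to 3 with single libraries left out (1 without any of the 4 tBSC or the 24-month Epi libraries). Between aBSC and Epi the count was 5 to 7 with single libraries left out.

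For aBSC against tBSC at 24 months 1 gene was called with equal totals (Tap2) and 2 with the 4 libraries left out (Tap2, Psmb8), where 44.9% of all genes were called. In the average of ages, 1 was called under quantile normalization (B2m), 2 with equal totals (Tap2, Nlrc5), 1 with library weights (Nlrc5), 1 with length trend removal (Psmb9), 3 with the 4 libraries left out (Tap2, Psmb8, Psmb10), where 60.8% of all genes were called, and 0 to 1 with single libraries left out. With age, Psmb8 and Psmb9 made a count of 2 in tBSC under library weights and of 2 in the mean with the 4 libraries left out. The number of positive members in Epi was 6 under quantile normalization and 4 to 10 with single libraries left out.

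The labels do not pair libraries by replicate number. Correlations of replicate differences ran from -0.58 to 0.79 over the 15 pairs of groups, with 7 above 0.1, so the numbers were not taken to pair all samples. All 6 pairs among the Epi and aBSC groups were above it, at 0.18 to 0.79, so these 8 libraries vary together with the number, and leaving out 1 of them also unbalances it. The replicate block called 1 gene (Nlrc5) between aBSC and tBSC in the average, and moved no other count of members by over 1.5 times.

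Some signs turned, and the cause was not tested. Between tBSC and Epi, Tap2 was -0.0076 under quantile normalization, -0.049 with equal totals, -0.075 with length trend removal, -0.25 with the 4 libraries left out and -0.074 to 0.30 with single libraries left out. Tapbp was -0.12 with its main transcript, -0.48 with the 4 libraries left out and -0.16 to 0.51 with single libraries left out, and Psmb10 -0.47 to 0.16. In aBSC against tBSC, quantile normalization gave 0.43 for B2m, 0.073 for H2-K1, 0.028 for H2-D1, 0.069 for Tap1, 0.14 for Psmb8 and 0.15 for Psmb9. Equal totals gave 0.12 for B2m, 0.27 for Tap1, 0.42 for Psmb8, 0.40 for Psmb9 and 0.12 for Psmb10. Length trend removal gave 0.18 for B2m, 0.43 for Psmb8, 0.47 for Psmb9 and 0.13 for Psmb10. With the 4 libraries left out B2m was 0.0077, Psmb8 0.35, Psmb9 0.22 and Psmb10 0.36. With single libraries left out Tap2 was -0.022 to 0.43, Psmb8 -0.25 to 0.22, Psmb9 -0.18 to 0.11 and Psmb10 -0.63 to 0.057. The age mean of Tapbp was -0.036 to 0.41 with single libraries left out. Scaling moved the median of all genes from 0.15 to -0.01 (quantile) between tBSC and Epi, and from -0.08 to 0.30 and from 0.08 to 0.32 (equal totals) between aBSC and tBSC and between aBSC and Epi. With 2 libraries per group, the SE of a difference between 2 groups ran from 0.33 for Nlrc5 to 0.59 for Tapbp among the members. A difference has to be well above its SE to be resolved, and even then it need not pass. Psmb9 with age in tBSC, at 0.82 with an SE of 0.41, did not pass in limma.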
